A study of Mus musculus with 8 samples.

Results

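The 46 genes described here encode proteins of mitosis and chromosome segregation. They were taken from a list of gene symbols that covers the cyclins and kinases of mitotic entry, the spindle, the kinetochore and its checkpoint, the kinesin motors, the separation of sister chromatids and the condensins. The list was drawn up by function, with earlier results of these data known, so that a count set against all genes is a description and not an independent test of the list. All 46 genes were found on the array and were well above background on all 8 arrays, among 16330 genes tested in all. Each gene was measured by its brightest probe.

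A dividing cell copies its chromosomes, condenses them and pulls the copies apart on a spindle of microtubules. Cyclin B with the kinase CDK1 drives entry into mitosis, the spindle checkpoint holds the cell until every kinetochore is attached, and the anaphase-promoting complex then releases the sisters. The mRNAs of most of these proteins rise late in the cell cycle and are low in resting cells, so that their level in a population is widely read as a mark of dividing cells. In early B-cell development, proliferation under interleukin 7 and differentiation are known to be coupled, and EBF1 is a transcription factor that B-lineage cells require.

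Gene expression was profiled on one-colour Agilent arrays in cells from C57Bl/6 fetal livers. All cells carried the genotype Ebf1-/-, so that the control cells lacked the endogenous gene as well. They were enriched for c-Kit, a receptor of progenitor cells, and plated on feeder cells of OP9, a mouse bone marrow stromal line. The medium held interleukin 7 at 5 ng/ml, and Flt3 ligand and stem cell factor at 10 ng/ml each. Cells were given a pMys retrovirus with GFP alone (Empty, 2 arrays), with wild-type EBF1 (EBF1wt, 3 arrays) or with EBF1-H240A (3 arrays), a form with alanine in place of a histidine, known for weaker binding to CNOT3, which belongs to the CCR4-NOT deadenylase. GFP-positive cells were sorted 36 h after transduction. The proteins were thus supplied from a retroviral vector and not from the gene's own promoter. Embryonic age and the number of animals behind an array are not given in the sources used here. Nothing in the labels says that the replicates came from separate cultures, and p-values cover no more than the scatter among these arrays, part of which may be technical.

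The share of probes well above background ran from 54.6% to 59.7% per array, and 0 spots were saturated. Correlations within a group were 0.991 to 0.995 across genes, which are not independent replicates. Kit, the gene of c-Kit, and Ptprc, the gene of the blood cell surface protein CD45, were both measured, and Ptprc did not pass in either comparison (adjusted p = 0.0531 and 0.541). On the log2 scale Kit fell by 0.79 with EBF1wt (adjusted p = 0.00131) and fell by 1.14 with EBF1-H240A (adjusted p = 0.00022). For the Ebf1 probe the sources used here do not say whether it reads the insert of the vectors. It gave differences from Empty of 0.03 (adjusted p = 0.805) and 0.16 (adjusted p = 0.191) that did not pass, and it does not check the labels. Each of the 2 slides held 1 Empty array and arrays of both other groups.

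The mitosis genes were lower in cells with either form of EBF1, and lower in more of them with EBF1-H240A. With EBF1wt, 24 of the 46 genes fell and 1, Pttg1, rose at a Benjamini-Hochberg adjusted p under 0.05 in limma, against 21.2% of all genes tested that fell and 17.2% that rose (38.4% in either direction). With EBF1-H240A, 40 fell and Pttg1 rose, against 23% and 21.6% of all genes (44.6% in either direction). The remaining 5 genes, Cdca3, Incenp, Kif22, Kif23 and Smc4, passed in neither comparison. Under several alternative settings, given at the end, Cdca3 and Kif22 passed with EBF1-H240A. All 24 genes that fell with EBF1wt also fell with EBF1-H240A, but both comparisons use the same Empty arrays. A fall in both comparisons was called for 17.8% of all genes.

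The size of the change was moderate. Across the 46 genes the median log2 difference from Empty was -0.30 with EBF1wt and -0.55 with EBF1-H240A, beside -0.04 and -0.0025 over all genes tested. The largest decreases were those of Espl1, the protease separase, which fell by 34.2% with EBF1wt and fell by 48.5% with EBF1-H240A, and of Cdk1, which fell by 31.1% and fell by 46.6%. The median of the 46 genes on single arrays, relative to the Empty mean, was 0.06 and -0.06 for Empty, -0.23, -0.32 and -0.35 for EBF1wt and -0.63, -0.53 and -0.52 for EBF1-H240A. The groups did not overlap in this median. All EBF1wt arrays lay below both Empty arrays for 38 genes, against 34.8% of all genes, and all EBF1-H240A arrays did for 42, against 33.9%. In RNA from a whole population, fewer dividing cells and less of these mRNAs in each dividing cell cannot be told apart.

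**Figure D1:**
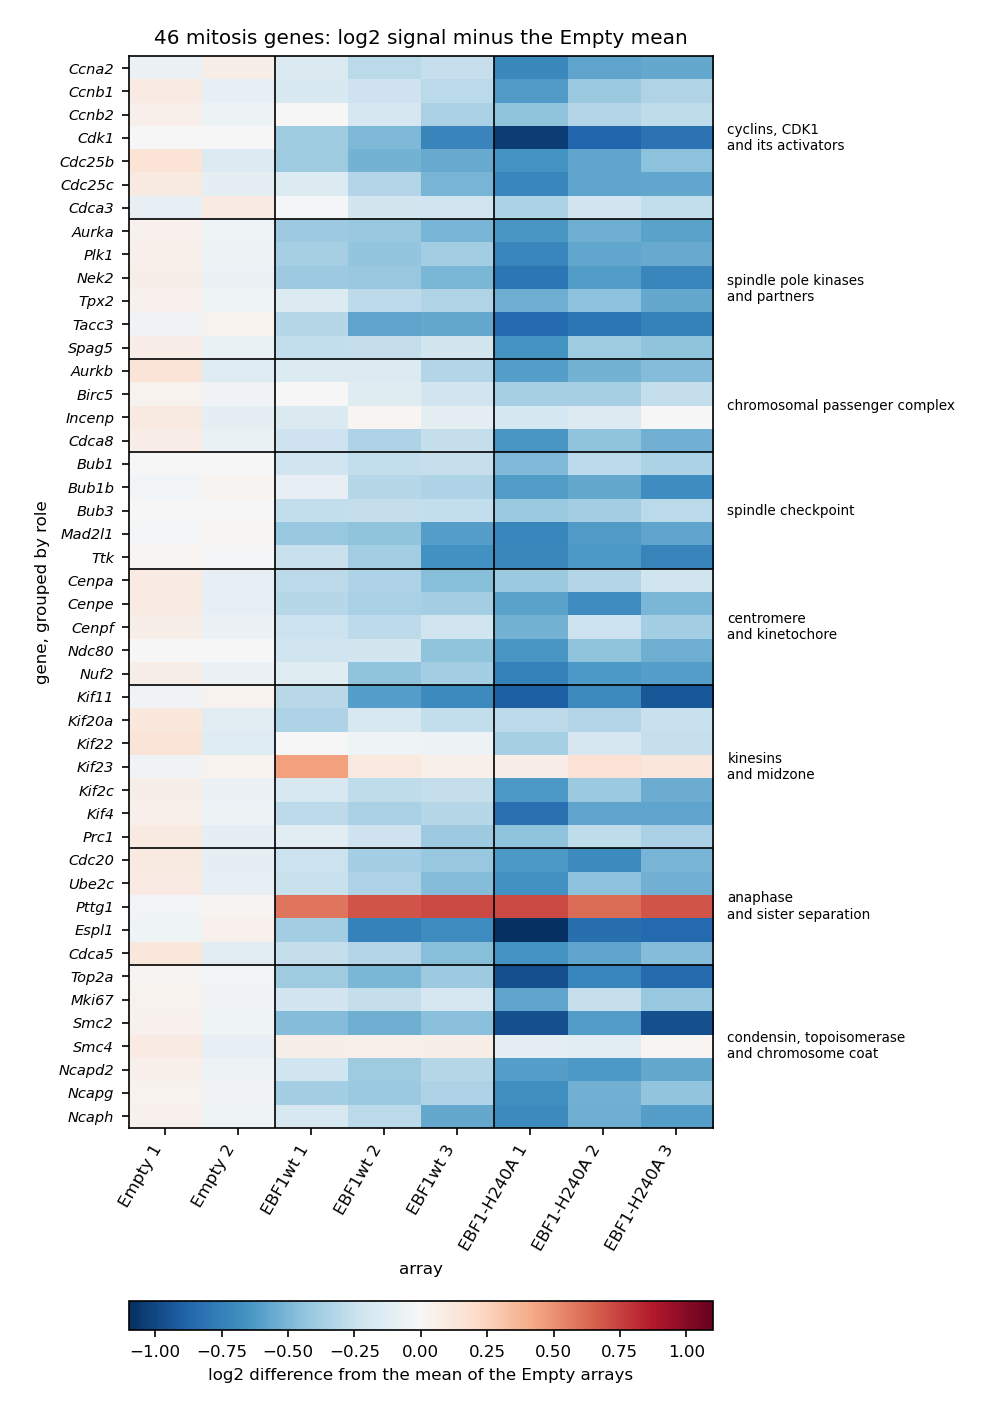
The heat map shows, for each of the 46 genes (rows, grouped by role) and each of the 8 arrays (columns), the log2 signal minus the mean of the 2 Empty arrays of that gene, with blue for lower and red for higher. Most rows turn darker blue from the EBF1wt to the EBF1-H240A columns, and Pttg1 is red in all 6 of them.

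The EBF1wt calls depended on the Empty arrays. Without Empty 1 the test called 4 members lower (8.7%), which is below the 12.2% of all genes called lower in that fit, and 5 of the 25 calls, those of Aurka, Mad2l1, Nek2, Tacc3 and Pttg1, were kept. Without Empty 2 it called 15 lower, without EBF1wt 2 it called 10 and without EBF1wt 3 it called 16, against 14.4%, 16.2% and 18.3% of all genes. These 5 genes were the ones whose EBF1wt call was kept whichever of the 8 arrays was left out. With EBF1-H240A, 33 of the 41 calls were kept whichever array was left out, and between 32 and 41 members were called lower, with 32 (69.6%) without Empty 1, against 15.8% of all genes. With the slide as a block, 18 members fell with EBF1wt and 38 with EBF1-H240A, against 19.2% and 21.6% of all genes. The block ended the EBF1wt calls of Tpx2, Cdca8, Bub1, Kif4, Cdc20, Ube2c and Cdca5 and the EBF1-H240A calls of Ccnb2 and Cenpa, and Ccna2 passed with EBF1wt under it. Within slide 1 and slide 2 alone, where no member passed (0 in both comparisons), the member medians were -0.38 and -0.24 for EBF1wt and -0.62 and -0.43 for EBF1-H240A. At an unadjusted p under 0.05, 12 and 3 members (26.1% and 6.52%) passed within these slides with EBF1wt, at or below the 26.5% and 24.2% of all genes. With EBF1-H240A 38 and 15 members (82.6% and 32.6%) passed, against 36.1% and 25.5% of all genes.

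**Figure D2:**
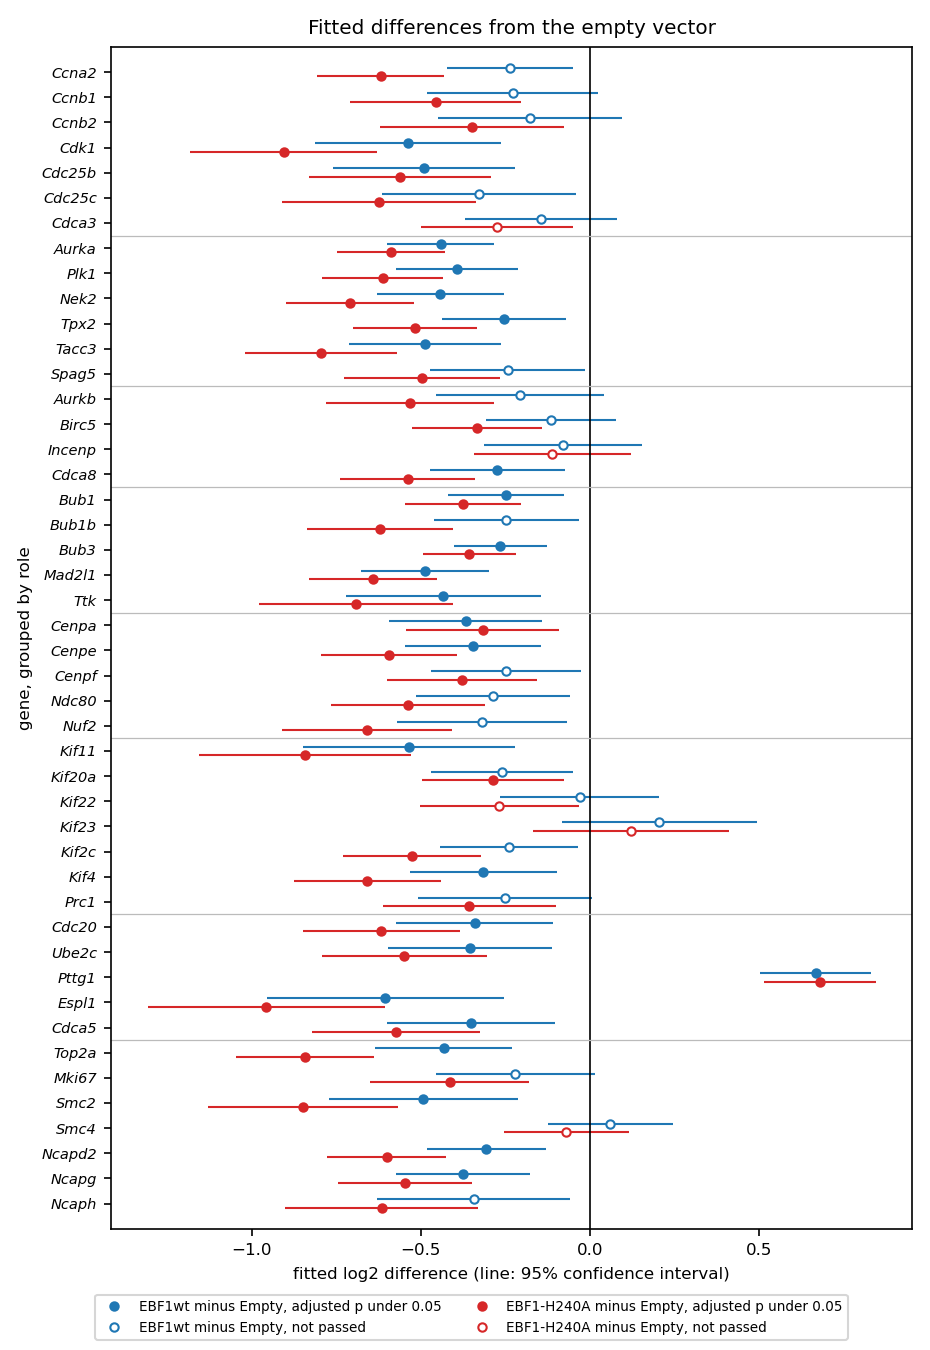
Points show the fitted log2 difference from Empty for each gene (vertical axis, grouped by role) with EBF1wt in blue and EBF1-H240A in red, lines show the 95% confidence interval, and filled points passed at an adjusted p under 0.05. Only Pttg1 has both intervals to the right of 0, and Kif23 and Smc4 have intervals that cross 0 in both comparisons, as does Incenp.

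Genes of this kind are known to share promoter elements, which the choice of the 46 genes did not use. The cell cycle homology region, with the core TTTGAA, is bound by the LIN54 subunit of the MuvB complex, which represses such genes in resting cells and, with B-MYB and FOXM1, activates them late in the cycle. The CCAAT box is bound by NF-Y and often lies upstream of it. RefSeq promoter windows of GRCm38.p6, from 250 bases before to 50 after the start of transcription, were found for 39 of the 46 genes. Aurkb, Ccna2, Cdc25c, Incenp, Kif20a, Smc4 and Tpx2 had no window in this table. The 100 bases before the start are shown for 6 genes that fell in both comparisons and for Pttg1, the gene that rose, 5′ to 3′ on the strand of the gene, with TTTGAA and CCAAT in capitals on either strand (TTCAAA and ATTGG are their complements).
Cdk1: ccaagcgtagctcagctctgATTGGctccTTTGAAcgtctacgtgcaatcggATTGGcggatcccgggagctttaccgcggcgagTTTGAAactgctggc
Top2a: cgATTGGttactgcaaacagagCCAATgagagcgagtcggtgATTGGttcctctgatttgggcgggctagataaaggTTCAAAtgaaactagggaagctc
Kif11: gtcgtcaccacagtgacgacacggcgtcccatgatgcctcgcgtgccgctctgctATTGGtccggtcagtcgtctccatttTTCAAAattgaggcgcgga
Espl1: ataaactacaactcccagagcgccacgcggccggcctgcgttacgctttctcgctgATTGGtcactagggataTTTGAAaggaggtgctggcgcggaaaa
Cdc20: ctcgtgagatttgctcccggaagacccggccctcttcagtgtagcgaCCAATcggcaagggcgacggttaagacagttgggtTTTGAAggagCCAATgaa
Ube2c: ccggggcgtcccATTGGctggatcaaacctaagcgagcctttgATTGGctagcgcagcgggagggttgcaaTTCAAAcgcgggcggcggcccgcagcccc
Pttg1: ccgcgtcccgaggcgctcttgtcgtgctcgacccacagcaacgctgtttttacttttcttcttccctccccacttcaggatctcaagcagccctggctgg
In GRCm38.p6 these stretches are chr10:69352913-69353012 on the minus strand for Cdk1, chr11:99024190-99024289 on the minus strand for Top2a, chr19:37376282-37376381 on the plus strand for Kif11 and chr15:102296193-102296292 on the plus strand for Espl1. They are chr4:118437344-118437443 on the minus strand for Cdc20, chr2:164769829-164769928 on the plus strand for Ube2c and chr11:43425982-43426081 on the minus strand for Pttg1. The first 6 stretches hold both elements. In those of Top2a, Kif11, Espl1 and Ube2c the TTTGAA core lies nearer to the start than every CCAAT box, while Cdc20 has a CCAAT box on either side of it and Cdk1 has a second core farther upstream. The stretch of Pttg1 holds neither, which says only that these letters are not in this window. The 6 genes shown are examples and do not stand for all genes that fell. Bub1, Cdc25b, Cenpe, Mad2l1, Nek2 and Tacc3 fell in both comparisons as well, and their windows hold no TTTGAA.

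Over the whole windows, searched on both strands, TTTGAA was found in 28 of the 39 genes (71.8%), and in 20.2% of all 27025 genes with a promoter window. In the related lists described below the share was 59.3% for spindle, 57.1% for condensin and 40% for kinetochore genes. It was 36.4% for regulators, 14.3% for anaphase-promoting complex and cohesin genes and 13.8% for DNA replication genes. The replication genes had medians of -0.41 with EBF1wt and -0.68 with EBF1-H240A. Within 50 bases of the start TTTGAA was found in 25 of the 39 (64.1%), against 5.72% of all genes. CCAAT was found in 30 of the 39 genes (76.9%), against 41.1%. The EBF palindrome, TCCC and GGGA set 2 bases apart, which EBF1 is known to bind, was found in 0 of the 39 genes and in 1.06% of all genes. The letters of TTTGAA and CCAAT can share only an end base. The 28 genes with TTTGAA had median log2 differences of -0.31 with EBF1wt and -0.55 with EBF1-H240A, and the 11 without had -0.34 and -0.59. The medians were thus no lower among the genes with the element. Of the 28 genes, 25 fell with EBF1-H240A, and of the 11, 10. A match is a description of the sequence and was not tested as a site of binding.

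**Figure D3:**
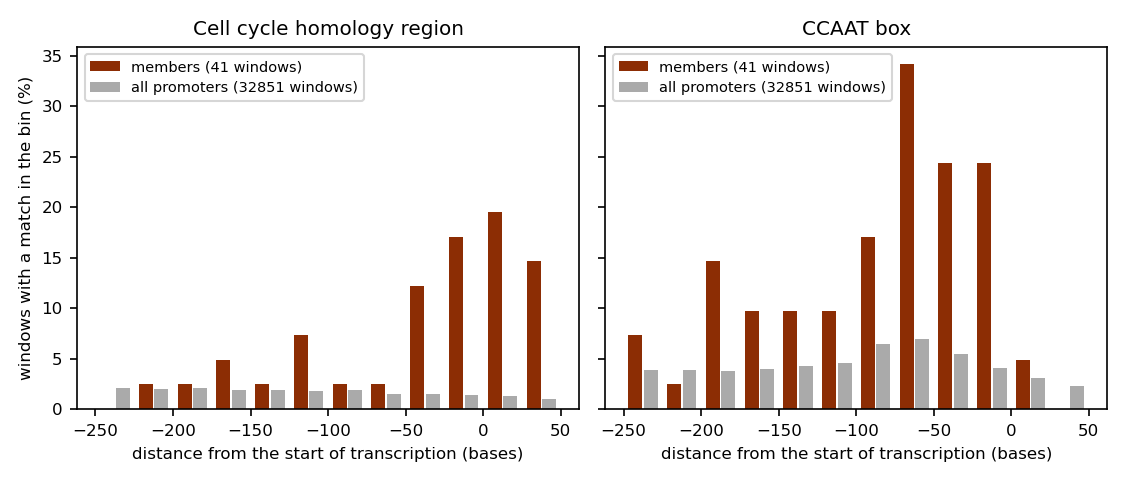
Bars give the percentage of promoter windows with a match in each stretch of 25 bases, by distance from the start of transcription, for the 41 windows of the 39 mitosis genes (Bub3 and Prc1 have 2 each) and for all 32851 windows. Matches to the cell cycle homology region in the mitosis genes lie mostly around the start, at up to 19.5% of windows in a stretch, and those to the CCAAT box lie mostly upstream of it, at up to 34.1%.

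In what follows, signals and differences are on the log2 scale, errors are standard errors of the fit, and where a pair of differences is given the first is EBF1wt against Empty and the second EBF1-H240A against Empty. Levels are compared only within a probe. The cyclins and the activators of CDK1 open mitosis. With EBF1wt 2 of these 7 genes fell and with EBF1-H240A 6 did, with median log2 differences of -0.24 and -0.56. The EBF1wt count is near the 21.2% of all genes that fell, while 23% fell with EBF1-H240A. Cdk1, the kinase itself, had log2 signals of 10.07 and 10.06 for Empty, 9.68, 9.57 and 9.33 for EBF1wt and 9.03, 9.19 and 9.25 for EBF1-H240A. The 3 groups did not overlap, and the differences from Empty were -0.54 ± 0.12 (SE, adjusted p = 0.0108) and -0.91 ± 0.12 (adjusted p = 0.000956). The Cdk1 probe is placed on chromosome 10 at 68805423 to 68807832 in mm9, the build of the array annotation. Ccna2, cyclin A2, read 10.71 and 10.84 for Empty, 10.61, 10.48 and 10.52 for EBF1wt and 10.06, 10.19 and 10.21 for EBF1-H240A. All EBF1-H240A arrays lay below all others. Its difference with EBF1-H240A was -0.62 ± 0.08 (adjusted p = 0.000941), while the EBF1wt difference of -0.24 ± 0.08 did not pass (adjusted p = 0.0527).

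The B-type cyclins moved less on their brightest probes. Ccnb1 read 8.90 and 8.72 for Empty, 8.64, 8.58 and 8.51 for EBF1wt and 8.18, 8.40 and 8.48 for EBF1-H240A, and it fell by 0.46 with EBF1-H240A (adjusted p = 0.0124) against an EBF1wt difference of -0.23 (adjusted p = 0.136). Ccnb2 fell by 0.35 with EBF1-H240A (adjusted p = 0.0445), and its EBF1wt arrays (11.67, 11.49 and 11.32) overlapped those of Empty (11.73 and 11.61). The other Ccnb1 probes gave larger EBF1-H240A differences, of -0.54 and -0.58, nearer to the -0.62 of Ccna2. Their EBF1wt differences were smaller, at -0.09 and -0.16. Between the forms these probes gave -0.45 and -0.43, against -0.23 for the brightest probe. The size of the Ccnb1 change thus depends on the probe. The phosphatase genes Cdc25b and Cdc25c encode activators of CDK1. Cdc25b fell, at -0.49 with EBF1wt (adjusted p = 0.0141) and -0.56 with EBF1-H240A (adjusted p = 0.00669), and all 3 of its probes gave negative differences. Cdc25c fell by 0.62 with EBF1-H240A (adjusted p = 0.00559), with an EBF1wt difference of -0.33 (adjusted p = 0.0713). Cdca3, which promotes the removal of the CDK1 inhibitor WEE1, did not pass, at -0.14 (adjusted p = 0.278) and -0.27 (adjusted p = 0.0521). The EBF1wt calls were lost without Empty 1 or Empty 2 for Cdk1 (adjusted p up to 0.0581) and without Empty 1 for Cdc25b (0.0817). The EBF1-H240A calls were lost without Empty 1 for Ccnb1 (adjusted p = 0.0831) and without any of 6 arrays, both Empty arrays, EBF1wt 2 and the 3 EBF1-H240A arrays, for Ccnb2 (up to 0.194).

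The kinases of the spindle poles and their partners fell in both comparisons almost throughout. Of the 6 genes, 5 fell with EBF1wt and 6 with EBF1-H240A, with medians of -0.42 and -0.60. Aurka, the Aurora A kinase that matures centrosomes, had signals of 11.70 and 11.61 for Empty, 11.26, 11.24 and 11.15 for EBF1wt and 11.02, 11.12 and 11.07 for EBF1-H240A. Every EBF1-H240A array lay below every EBF1wt array, and the differences were -0.44 ± 0.07 (adjusted p = 0.00252) and -0.59 ± 0.07 (adjusted p = 0.000581). Plk1, the Polo-like kinase of mitotic entry and spindle assembly, fell, at -0.39 (adjusted p = 0.00681) and -0.61 (adjusted p = 0.00083). Nek2, a kinase that separates the centrosomes, fell, at -0.44 (adjusted p = 0.00508) and -0.71 (adjusted p = 0.000538).

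Tacc3 encodes an Aurora A substrate that stabilises spindle fibres. Its signals were 9.82 and 9.89 for Empty, 9.54, 9.28 and 9.29 for EBF1wt and 9.01, 9.06 and 9.12 for EBF1-H240A, with no overlap between the groups. It fell, at -0.49 ± 0.09 with EBF1wt (adjusted p = 0.00705) and -0.80 ± 0.09 with EBF1-H240A (adjusted p = 0.000699). Tpx2, the spindle activator of Aurora A, fell, at -0.25 (adjusted p = 0.0389) and -0.52 (adjusted p = 0.00191). Spag5, the spindle protein astrin, fell by 0.50 with EBF1-H240A (adjusted p = 0.00589), and its EBF1wt difference of -0.24 did not pass (adjusted p = 0.0896). The 6 EBF1-H240A calls were kept whichever array was left out. The EBF1wt call of Plk1 was lost without Empty 1 (adjusted p = 0.0505), and that of Tpx2 without any of 6 arrays, which were both Empty arrays, EBF1wt 2 and 3 and EBF1-H240A 1 and 3 (up to 0.181).

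The chromosomal passenger complex corrects faulty attachments of chromosomes and later guides cytokinesis. Of its 4 genes, 1 fell with EBF1wt and 3 with EBF1-H240A, with medians of -0.16 and -0.43. The 1 of 4 is near the 21.2% of all genes that fell with EBF1wt, while 23% fell with EBF1-H240A. Aurkb, its kinase Aurora B, read 9.28 and 8.99 for Empty, 8.99, 8.99 and 8.82 for EBF1wt and 8.53, 8.62 and 8.66 for EBF1-H240A. It fell by 0.53 ± 0.10 with EBF1-H240A (adjusted p = 0.00605), while the difference with EBF1wt was -0.21 ± 0.10 (adjusted p = 0.167). All EBF1-H240A arrays lay below all others. Cdca8, the subunit borealin, fell, at -0.28 (adjusted p = 0.0393) and -0.54 (adjusted p = 0.00226). Birc5, the subunit survivin, fell by 0.33 with EBF1-H240A (adjusted p = 0.0147), with an EBF1wt difference of -0.12 (adjusted p = 0.312). Incenp, the scaffold of the complex, read between 13.02 and 13.31 on all 8 arrays. Its groups overlapped, and its differences of -0.08 (adjusted p = 0.568) and -0.11 (adjusted p = 0.397) did not pass. The EBF1wt call of Cdca8 was lost without any of 6 arrays, all Empty and EBF1wt arrays and EBF1-H240A 3 (adjusted p up to 0.202), and the EBF1-H240A call of Birc5 was lost without Empty 1 (0.0846).

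The spindle checkpoint delays anaphase while a kinetochore is unattached. Of its 5 genes, 4 fell with EBF1wt and 5 with EBF1-H240A, with medians of -0.27 and -0.62. Mad2l1, which encodes the checkpoint effector MAD2, read 9.20 and 9.24 for Empty, 8.80, 8.77 and 8.61 for EBF1wt and 8.50, 8.59 and 8.64 for EBF1-H240A. Both EBF1 groups lay below Empty and overlapped each other, and the differences were -0.49 ± 0.08 (adjusted p = 0.00349) and -0.64 ± 0.08 (adjusted p = 0.000852). Bub1b, the gene of BUBR1, which binds and inhibits CDC20, read 9.63 and 9.70 for Empty, 9.57, 9.35 and 9.32 for EBF1wt and 9.05, 9.10 and 8.98 for EBF1-H240A. It fell by 0.62 ± 0.09 with EBF1-H240A (adjusted p = 0.0017), and its EBF1wt difference was -0.25 ± 0.09 (adjusted p = 0.0706).

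The kinase gene Ttk, which encodes MPS1 at the top of the checkpoint, fell, at -0.43 (adjusted p = 0.0287) and -0.69 (adjusted p = 0.00368). Bub3, the kinetochore adaptor of the BUB proteins, fell, at -0.27 (adjusted p = 0.0113) and -0.36 (adjusted p = 0.00266). Its 3 EBF1wt arrays all read 11.80, between 12.06 and 12.07 with Empty and 11.66 to 11.77 with EBF1-H240A. Bub1 fell, at -0.25 (adjusted p = 0.0329) and -0.38 (adjusted p = 0.00552) by its brighter probe, at 127626988 to 127627047 on chromosome 2 of mm9. Its other probe, at 127626326 to 127626385, gave differences of 0.07 and 0.27 in the opposite direction. Over the mean of both probes the Bub1 differences were -0.09 (adjusted p = 0.619) and -0.05 (adjusted p = 0.751), so that its calls rest on the choice of probe. The 5 EBF1-H240A calls were kept whichever array was left out. The EBF1wt calls were lost without either Empty array for Bub3 (adjusted p up to 0.0574), without either Empty array or EBF1wt 2 for Ttk (up to 0.124) and without any Empty or EBF1wt array for Bub1 (up to 0.12).

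The centromere and kinetochore genes connect chromosomes to the spindle. With EBF1wt 2 of the 5 fell and with EBF1-H240A 5 did, with medians of -0.32 and -0.54. Cenpe, a kinetochore motor that brings chromosomes to the spindle equator, read 12.01 and 11.83 for Empty, 11.61, 11.57 and 11.55 for EBF1wt and 11.33, 11.23 and 11.42 for EBF1-H240A. It fell, at -0.35 ± 0.08 (adjusted p = 0.0177) and -0.59 ± 0.08 (adjusted p = 0.00153), with no overlap between the groups. Ndc80 and Nuf2 encode partners in the complex that holds the microtubule. Nuf2 fell by 0.66 with EBF1-H240A (adjusted p = 0.00258) and Ndc80 fell by 0.54 (adjusted p = 0.00395), and with EBF1wt their differences were -0.32 (adjusted p = 0.0521) and -0.29 (adjusted p = 0.0531).

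Cenpf, a protein of the outer kinetochore, fell by 0.38 with EBF1-H240A (adjusted p = 0.0158), with an EBF1wt difference of -0.25 (adjusted p = 0.0769). Cenpa, the histone variant that marks the centromere, read 10.14 and 9.95 for Empty, 9.76, 9.70 and 9.57 for EBF1wt and 9.64, 9.72 and 9.83 for EBF1-H240A. The EBF1 groups overlapped, and Cenpa fell, at -0.37 (adjusted p = 0.0219) and -0.32 (adjusted p = 0.0328). The EBF1wt calls were lost without Empty 1 or EBF1wt 2 for Cenpe (adjusted p up to 0.109), and without Empty 1, EBF1wt 2 or EBF1wt 3 for Cenpa (up to 0.133). The EBF1-H240A calls were lost without Empty 1 for Cenpf (0.0965) and without Empty 1, EBF1wt 2, EBF1-H240A 1 or EBF1-H240A 2 for Cenpa (up to 0.185). Over the mean of both Cenpa probes neither of its calls passed.

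Among the kinesin motors and the proteins of the spindle midzone, 2 of 7 genes fell with EBF1wt and 5 with EBF1-H240A, with medians of -0.25 and -0.36. Of all genes 21.2% and 23% fell, and the 2 of 7 with EBF1wt is near that share. Kif11, the motor that pushes the spindle poles apart, read 8.59 and 8.66 for Empty, 8.32, 8.02 and 7.92 for EBF1wt and 7.73, 7.92 and 7.69 for EBF1-H240A. Both EBF1 groups lay below Empty. The differences were -0.54 ± 0.13 (adjusted p = 0.0182) and -0.84 ± 0.13 (adjusted p = 0.00229), and the probe lies on chromosome 19 at 37495755 to 37495814 in mm9. Kif4, a chromosome-borne motor that shapes the chromosome axis and the midzone, fell, at -0.32 (adjusted p = 0.0326) and -0.66 (adjusted p = 0.00138). Kif2c, which depolymerises microtubules at the centromere, fell by 0.53 with EBF1-H240A (adjusted p = 0.00275), with an EBF1wt difference of -0.24 (adjusted p = 0.0655).

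The midzone genes Prc1, which bundles antiparallel microtubules, and Kif20a, a motor of cytokinesis, were lower by less on their brightest probes. With EBF1-H240A Prc1 fell by 0.36 (adjusted p = 0.0335) and Kif20a fell by 0.29 (adjusted p = 0.0349), and their EBF1wt differences were -0.25 (adjusted p = 0.11) and -0.26 (adjusted p = 0.0549). The other Kif20a probe gave larger differences, of -0.39 and -0.57. Over the mean of its probes Kif20a also passed with EBF1wt, so that the size of its change depends on the probe. Kif22, a motor that pushes chromosome arms, did not pass, at -0.03 (adjusted p = 0.843) and -0.27 (adjusted p = 0.0649). Kif23, the motor of the centralspindlin complex in cytokinesis, read 10.35 and 10.43 for Empty, from 10.45 to 10.84 for EBF1wt and 10.47, 10.55 and 10.52 for EBF1-H240A. It was the kinesin with fitted differences above 0, and these did not pass (0.20, adjusted p = 0.233, and 0.12, adjusted p = 0.462). Another probe of Kif23 gave -0.03 with EBF1wt, and all 3 gave positive values with EBF1-H240A. The EBF1wt calls were lost without Empty 1, Empty 2 or EBF1wt 2 for Kif11 (adjusted p up to 0.0922) and without any Empty or EBF1wt array for Kif4 (up to 0.166). The EBF1-H240A calls were lost without Empty 1, EBF1wt 3 or any EBF1-H240A array for Kif20a (up to 0.199) and without Empty 1, EBF1wt 2, EBF1-H240A 1 or EBF1-H240A 3 for Prc1 (up to 0.188).

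The genes of anaphase and sister separation held both the largest decrease, that of Espl1, and the only increase called among the 46, that of Pttg1. Of the 5 genes, 4 fell and 1 rose in each comparison, with medians of -0.35 and -0.57. Espl1 encodes separase, the protease that cuts cohesin, and Pttg1 encodes securin, which inhibits separase until anaphase. Espl1 read 9.42 and 9.52 for Empty, 9.09, 8.73 and 8.78 for EBF1wt and 8.29, 8.64 and 8.61 for EBF1-H240A, and it fell, at -0.60 ± 0.15 (adjusted p = 0.0174) and -0.96 ± 0.15 (adjusted p = 0.00215). Pttg1 read 11.06 and 11.12 for Empty, 11.68, 11.78 and 11.82 for EBF1wt and 11.82, 11.71 and 11.79 for EBF1-H240A. All 6 arrays with EBF1 lay above both Empty arrays. Pttg1 rose by 0.67 ± 0.07 with EBF1wt (58.8%, adjusted p = 0.000492) and by 0.68 ± 0.07 with EBF1-H240A (60.1%, adjusted p = 0.000364), and both calls were kept whichever array was left out. It was measured by 1 probe, on chromosome 11 at 43233801 to 43233860 in mm9.

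Cdc20 activates the anaphase-promoting complex, and Ube2c is the ubiquitin-conjugating enzyme that works with it. Cdc20 read 11.999 and 11.80 for Empty, 11.67, 11.53 and 11.48 for EBF1wt and 11.26, 11.20 and 11.38 for EBF1-H240A, with no overlap between the groups. It fell, at -0.34 ± 0.10 (adjusted p = 0.0315) and -0.62 ± 0.10 (adjusted p = 0.00243). Ube2c fell, at -0.36 (adjusted p = 0.032) and -0.55 (adjusted p = 0.00483), and Cdca5, the cohesin protector sororin, fell too, at -0.35 (adjusted p = 0.0356) and -0.57 (adjusted p = 0.00438). The EBF1-H240A calls of these genes were kept whichever array was left out. The EBF1wt calls were lost without Empty 1, EBF1wt 2 or EBF1wt 3, and without EBF1-H240A 1 for Cdc20 (adjusted p up to 0.179), EBF1-H240A 3 for Ube2c (up to 0.177) and EBF1-H240A 2 for Cdca5 (up to 0.2005). That of Espl1 was lost without Empty 1, Empty 2 or EBF1wt 2 (up to 0.0922).

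The condensins, topoisomerase II and the chromosome coat protein Ki-67 give mitotic chromosomes their shape. Of these 7 genes, 4 fell with EBF1wt and 6 with EBF1-H240A, with medians of -0.34 and -0.60. Top2a, which untangles the sister DNAs, read 10.82 and 10.77 for Empty, 10.40, 10.29 and 10.39 for EBF1wt and 9.83, 10.08 and 9.95 for EBF1-H240A. The groups did not overlap, and the differences were -0.43 ± 0.09 (adjusted p = 0.00761) and -0.84 ± 0.09 (adjusted p = 0.000356). Its probe is placed at 98857244 to 98858058 on chromosome 11 of mm9.

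The core condensin ATPases are SMC2 and SMC4, which work as a pair, yet their mRNAs differed. Smc2 read 9.15 and 9.05 for Empty, 8.62, 8.56 and 8.64 for EBF1wt and 8.13, 8.49 and 8.13 for EBF1-H240A, and fell, at -0.49 ± 0.12 (adjusted p = 0.0163) and -0.85 ± 0.12 (adjusted p = 0.00138). Smc4 read 11.46 and 11.28 for Empty, 11.43, 11.42 and 11.43 for EBF1wt and 11.26, 11.25 and 11.39 for EBF1-H240A. Its groups overlapped and its differences of 0.06 (adjusted p = 0.596) and -0.07 (adjusted p = 0.505) did not pass. The other Smc4 probe gave -0.04 and -0.26. The unequal change of Smc2 and Smc4 was itself not tested.

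The non-SMC subunits of condensin I moved with Smc2. Ncapd2 fell, at -0.31 (adjusted p = 0.0167) and -0.60 (adjusted p = 0.000809), and Ncapg fell, at -0.38 (adjusted p = 0.0123) and -0.55 (adjusted p = 0.0021). Ncaph fell by 0.62 with EBF1-H240A (adjusted p = 0.00585), with an EBF1wt difference of -0.34 (adjusted p = 0.0608). Mki67, the gene of the proliferation marker Ki-67, read 12.76 and 12.68 for Empty, 12.51, 12.46 and 12.53 for EBF1wt and 12.14, 12.47 and 12.31 for EBF1-H240A. It fell by 0.42 ± 0.10 with EBF1-H240A (adjusted p = 0.0134), and its EBF1wt difference of -0.22 ± 0.10 did not pass (adjusted p = 0.123). The EBF1wt calls were lost without Empty 1 for Top2a (adjusted p = 0.0509) and Ncapg (0.0765), without Empty 1 or EBF1wt 2 for Ncapd2 (up to 0.102), and without Empty 1, Empty 2 or EBF1wt 2 for Smc2 (up to 0.0927). The EBF1-H240A call of Mki67 was lost without Empty 1 (0.0768).

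**Figure D4:**
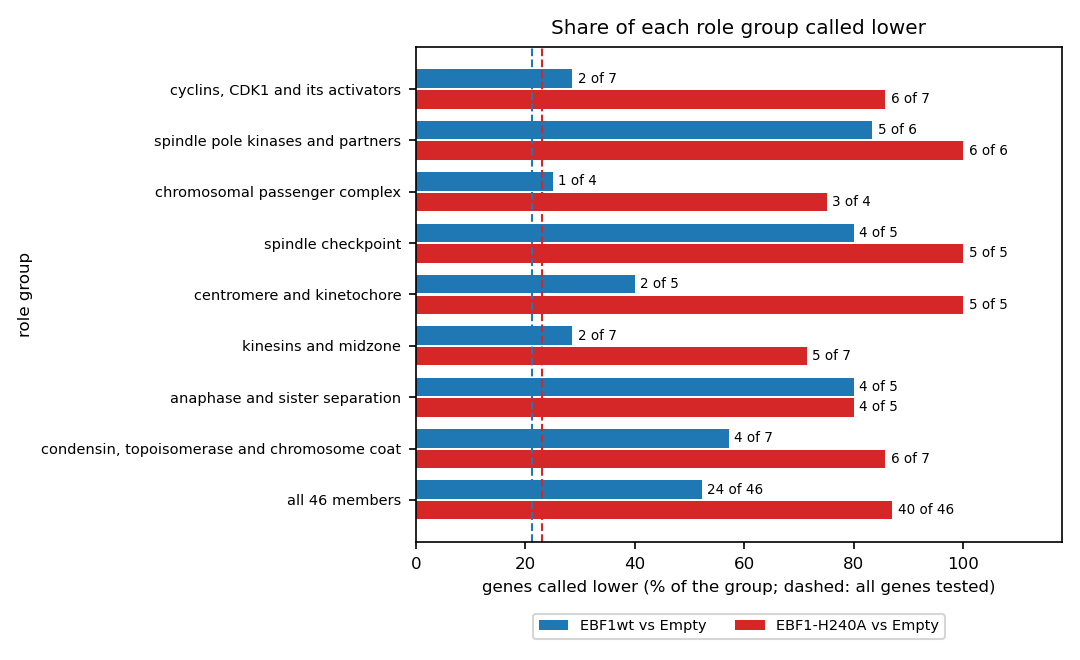
Bars give the percentage of each role group, and of all 46 genes, called lower at an adjusted p under 0.05 with EBF1wt (blue) and EBF1-H240A (red), with the counts beside them, and dashed lines give the share of all genes tested (21.2% and 23%). With EBF1wt the bars of the passenger complex (1 of 4 genes), the cyclins (2 of 7) and the kinesins (2 of 7) lie near their line, and with EBF1-H240A all of the spindle pole, checkpoint and kinetochore genes were called.

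EBF1-H240A against EBF1wt compares cells given either form. The amount of each protein was not measured on these arrays, so the substitution and a difference in amount cannot be told apart. A difference was called for 4 of the 46 genes, all lower with EBF1-H240A. Among all genes, 2.73% were called lower and 3.64% higher (6.36% in either direction). Top2a differed by -24.7%, at -0.41 ± 0.08 on the log2 scale (adjusted p = 0.0281), and Ccna2 by -23.3%, at -0.38 ± 0.07 (adjusted p = 0.0274). Bub1b, at -0.37 ± 0.08 (adjusted p = 0.0446), and Ncapd2, at -0.29 ± 0.07 (adjusted p = 0.0497), were the others. Without EBF1-H240A 2 the call of Top2a was kept, and without Empty 1 or Empty 2 that of Ccna2. The calls of Bub1b and Ncapd2 were lost without any 1 of the 8 arrays. Between 0 and 2 members were called in these 8 fits. With the slide as a block 1 was, against 1.72% of all genes called lower, and the calls of Top2a, Bub1b and Ncapd2 were lost.

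Most single genes did not pass this test, but their fitted differences pointed one way. All genes were read on the same arrays, so the counts that follow are descriptions and not independent observations. Fitted differences were below 0 for 44 of the 46 genes, against 45.1% of all genes tested, with a median of -0.24 beside 0.02 over all genes. All 3 EBF1-H240A arrays lay below all 3 EBF1wt arrays for 30 genes, against 12.9% of all genes. For 27 genes the 3 groups were fully ordered, with Empty highest and EBF1-H240A lowest, against 6.17% of all genes. The member medians were -0.23 within slide 1 and -0.20 within slide 2. At an unadjusted p under 0.05, 29 of the 46 genes (63%) passed, against 22.8% of all genes. Within the slides 2 members passed in each (4.35%), below the 9.33% and 9.8% of all genes.

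Cdk1 differed by -0.37 ± 0.10 between the forms (95% confidence interval -0.61 to -0.12, adjusted p = 0.0889) and Kif4 by -0.34 ± 0.08 (-0.54 to -0.15, adjusted p = 0.0587). The genes above 0 were Cenpa, at 0.05 (-0.15 to 0.25, adjusted p = 0.783), and Pttg1, at 0.01 (-0.13 to 0.16, adjusted p = 0.935). For Cdc25b the difference was -0.07 (-0.31 to 0.17, adjusted p = 0.743) and for Bub3 -0.09 (-0.21 to 0.03, adjusted p = 0.357). A difference that did not pass does not show that the forms act alike.

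Other genes of the same processes, from lists drawn up by function, gave the following counts, with the shares of all genes given above. Of 35 other kinetochore and centromere genes, 17 fell and 1 rose with EBF1wt and 27 fell and 1 rose with EBF1-H240A, with medians of -0.31 and -0.50. Nsl1, a subunit of the kinetochore's MIS12 complex, fell, at -0.72 (adjusted p = 0.00494) and -0.89 (adjusted p = 0.00165). Hjurp, the chaperone that loads CENP-A, rose by 0.23 (adjusted p = 0.0184) and 0.37 (adjusted p = 0.00214), and its EBF1wt call was lost without Empty 1 or Empty 2 (adjusted p up to 0.0776). Over the mean of its probes neither call of Hjurp passed. Cenpn, which binds CENP-A nucleosomes, read 7.49 and 7.46 for Empty, 7.62, 7.55 and 7.51 for EBF1wt and 6.90, 6.80 and 7.04 for EBF1-H240A. The EBF1wt difference of 0.09 did not pass (adjusted p = 0.452), and Cenpn was lower with EBF1-H240A than with EBF1wt, at -0.65 ± 0.07 on the log2 scale (adjusted p = 0.00646), a call kept whichever array was left out. Between the forms 6 of the 35 genes were called lower and none (0) higher.

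Of 30 other spindle and cytokinesis genes, 16 fell with EBF1wt and 26 with EBF1-H240A and none (0) rose, with medians of -0.32 and -0.54. Ect2, which activates the contractile ring, fell, at -0.66 (adjusted p = 0.00427) and -0.87 (adjusted p = 0.00106). Of these 30 genes, 1, the centriole gene Stil, was lower with EBF1-H240A than with EBF1wt, at -0.32 (adjusted p = 0.0336), a call lost without any 1 of the 8 arrays (adjusted p up to 0.1). Of 11 other condensin and chromatid genes, 9 and 10 fell, with medians of -0.40 and -0.52. Cdca7, a chromatin protein of cycling cells, read 10.36 and 10.32 for Empty, 9.85, 9.73 and 9.67 for EBF1wt and 9.33, 9.33 and 9.28 for EBF1-H240A. It fell, at -0.59 (adjusted p = 0.000851) and -1.03 (adjusted p = 6.03e-05) and differed between the forms by -0.44 (adjusted p = 0.0123), with no overlap between the groups. These calls were kept whichever array was left out.

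The subunits of the anaphase-promoting complex and cohesin, many of which are made throughout the cell cycle, moved less. Of 26 genes, 5 fell and 1 rose with EBF1wt and 10 fell and 2 rose with EBF1-H240A, with medians of -0.10 and -0.16. The 5 of 26 is close to the 21.2% of all genes that fell. Fbxo5, an inhibitor of the complex that accumulates before mitosis, fell, at -0.55 (adjusted p = 0.00108) and -0.80 (adjusted p = 0.000165). Stag2, a cohesin subunit, rose by 0.29 (adjusted p = 0.0135) and 0.38 (adjusted p = 0.00329), although its EBF1wt call was lost without Empty 1 or Empty 2 (adjusted p up to 0.0655), and over the mean of its probes neither call passed. Of 36 DNA replication genes, 24 fell and 1 rose with EBF1wt and 33 fell with EBF1-H240A, with medians of -0.41 and -0.68, and 8 were called lower with EBF1-H240A than with EBF1wt. Cdc6, a loader of the replicative helicase, fell, at -0.66 (adjusted p = 0.000826) and -0.92 (adjusted p = 0.000157). Cdt1, its partner, had the largest decrease in the list with EBF1-H240A, at -1.09 ± 0.27 (adjusted p = 0.0171), but its EBF1-H240A arrays were spread, at 11.74, 10.74 and 11.51, and the call was lost without Empty 1 or Empty 2 (adjusted p up to 0.0939). The increase was that of Tk1, thymidine kinase, at 0.26 with EBF1wt (adjusted p = 0.029), lost without any Empty or EBF1wt array (up to 0.115). Tk1 did not pass with EBF1-H240A (-0.08, adjusted p = 0.416) and was lower with it than with EBF1wt, at -0.34 (adjusted p = 0.0303). This call was kept in 1 of the 8 fits that leave out an array. Pold1, a DNA polymerase subunit, had the largest decrease between the forms that was called, at -0.45 (adjusted p = 0.0145), and this was lost without EBF1wt 1 (adjusted p = 0.0602).

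**Figure D5:**
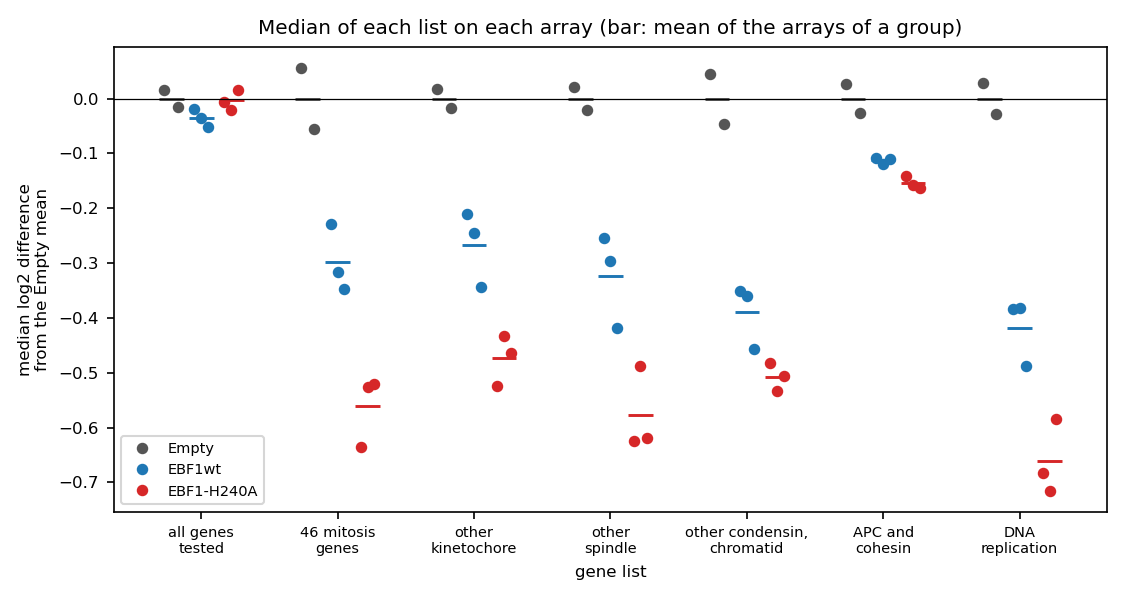
Points show, for each array, the median log2 difference from the Empty mean over the genes of a list, with Empty in grey, EBF1wt in blue and EBF1-H240A in red, and bars show the mean of a group's arrays. The EBF1 arrays lie between -0.05 and 0.02 for all genes tested, and for the 46 mitosis genes between -0.23 and -0.35 with EBF1wt and between -0.52 and -0.63 with EBF1-H240A.

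Of 30 regulators of mitotic gene transcription and mitotic entry, 18 fell and 5 rose with EBF1wt and 20 fell and 4 rose with EBF1-H240A, with medians of -0.34 and -0.42. Foxm1, a transcription factor that activates many mitotic genes, read 8.53 and 8.62 for Empty, 8.25, 8.10 and 7.99 for EBF1wt and 7.71, 7.86 and 7.77 for EBF1-H240A. The groups did not overlap, and it fell, at -0.46 ± 0.09 (adjusted p = 0.00857) and -0.80 ± 0.09 (adjusted p = 0.000673). Its EBF1wt call was lost without Empty 2 (adjusted p = 0.0565). Mybl2, the gene of B-MYB, read 9.07 and 8.91 for Empty, 9.21, 9.20 and 9.01 for EBF1wt and 9.04, 8.94 and 9.30 for EBF1-H240A, and its overlapping groups gave differences of 0.15 (adjusted p = 0.392) and 0.10 (adjusted p = 0.549).

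The subunits Lin9 and Lin54 of the MuvB complex moved in opposite directions. Lin9 rose by 0.33 (adjusted p = 0.00834) and 0.25 (adjusted p = 0.0225), and Lin54, which contacts the cell cycle homology region shown above, fell, at -0.45 (adjusted p = 0.0101) and -0.37 (adjusted p = 0.0175). Under 1 or more fits that left out an array each of these calls was lost, with Lin9 at up to 0.0529 (without Empty 2) and 0.112 and Lin54 at up to 0.0601 (without Empty 1) and 0.0862. With EBF1-H240A they were lost without Empty 1, Empty 2, EBF1-H240A 2 or EBF1-H240A 3 for Lin9 and without Empty 1, Empty 2 or EBF1-H240A 1 for Lin54. Under median scaling and normexp background correction the EBF1-H240A call of Lin9 was lost as well.

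The E2F factors, which control genes of the G1 to S transition and beyond, did not move together. The activator E2f1 fell, at -0.53 (adjusted p = 0.00533) and -0.67 (adjusted p = 0.00162) and the late-cycle repressor E2f8 fell, at -0.61 (adjusted p = 0.00324) and -0.74 (adjusted p = 0.00107). E2f3 fell, at -0.67 (adjusted p = 0.00257) and -0.71 (adjusted p = 0.00156). The repressor E2f4 fell, at -0.41 (adjusted p = 0.0253) and -0.47 (adjusted p = 0.012). Both E2f4 calls were lost without Empty 1, and the first also without EBF1wt 2 or EBF1wt 3. With normexp background correction both were lost as well (adjusted p = 0.194 and 0.202), as was the first without the probe filter (0.0723). E2f2 rose, from 11.39 and 11.41 with Empty to between 12.17 and 12.22 with EBF1wt and between 12.16 and 12.30 with EBF1-H240A, by 0.80 ± 0.06 (adjusted p = 0.000145) and 0.84 ± 0.06 (adjusted p = 9.23e-05). The CDK subunit gene Cks2 did not pass, at 0.07 in both comparisons (adjusted p = 0.445 and 0.43). Ensa, whose product restrains a phosphatase during mitosis, was the 1 gene of the list called between the forms. It was higher with EBF1-H240A by 0.23 (adjusted p = 0.0423), and the call was lost without any 1 of the 8 arrays (adjusted p up to 0.138).

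Markers of other cell types moved with the same groups. Of 20 stromal feeder genes, 17 were tested, of which 7 rose with EBF1wt and 10 with EBF1-H240A and none (0) fell, with medians of 0.59 and 0.57. Their summed scaled signal was 23660 to 23690 on the Empty arrays, 27000 to 33810 with EBF1wt and 26380 to 28360 with EBF1-H240A, and Lum, Postn and Igfbp5 were not among the genes tested. Of 12 erythroid genes 6 were tested, with a summed signal of 10850 to 11770 for Empty, 2627 to 3184 with EBF1wt and 1912 to 2007 with EBF1-H240A. In both comparisons 3 of them fell and 1 rose. Their differences ran from -3.13 to 6.95 with EBF1wt and from -3.58 to 6.06 with EBF1-H240A, so that the sum does not stand for every gene of the list. The defining genes Klf1, Hba-a1 and Hbb-bs were not among the genes tested. The erythroid sum had the same order of groups as the median of the mitosis genes, as did the hepatocyte sum, and the stromal sum did not.

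Of 10 T and innate lymphoid genes 9 were tested, of which 7 fell in each comparison and 1 rose with EBF1wt. Their summed signal was 11720 to 12390 for Empty, 5177 to 5348 with EBF1wt and 4444 to 5181 with EBF1-H240A, with an overlap between the EBF1 groups, and Bcl11b was not among the genes tested. Of 11 myeloid genes 9 were tested, and 4 rose and 4 fell with EBF1wt and 5 rose and 4 fell with EBF1-H240A. The myeloid sums were 115300 to 123100, 146900 to 158300 and 146600 to 164400, and Elane and Csf3r were not among the genes tested. Of 10 B-lineage genes 9 were tested, and 9 rose with EBF1wt and 8 with EBF1-H240A. Their sum was 831.6 to 908.3 for Empty, 54190 to 60970 with EBF1wt and 28840 to 32520 with EBF1-H240A, and Pax5 was not among the genes tested.

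Of 11 mast cell and megakaryocyte genes 5 were tested, of which 2 fell and 2 rose with EBF1wt and 2 fell and 3 rose with EBF1-H240A, with medians of 0.16 and 0.73. Their sums, which ran the other way from these medians, were 282.5 to 298.7, 221.7 to 245.1 and 213.3 to 260.5. Of 10 hepatocyte genes 2 were tested and both fell in both comparisons, with sums of 584.6 to 590.4, 183.6 to 216 and 80.98 to 85.76. Between the forms the differences of these 2 genes were -1.69 and 0.01. The order of the EBF1 groups in the hepatocyte sum thus rests on 1 gene. The defining hepatocyte genes Alb and Afp were not among the genes tested. The part of these cell types in the levels of the mitosis genes was not tested.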

How the data were processed

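Agilent Feature Extraction, version 10.5.1.1, made the scanner files, as the submitters' processing notes state. The deposited signal is an intensity on a linear scale from which background was subtracted, per the file headers, with flags of 0 or 1 for detection, saturation and outliers. The deposited value table of the series holds log2 values of the same arrays (column medians 4.90 to 4.93, r = 0.986 to 0.991 with the scanner values), whose normalization and centring are not given in the sources used here. It served as an alternative.

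For 43379 spots that are not controls, each array was scaled to a common 75th percentile (232 to 326 before scaling), set to at least 1 and taken as log2. Spots flagged as outliers were dropped and the rest averaged per probe, giving 41174 probes, of which 25034 were well above background on at least 2 arrays. Of these, 24 lacked a value on some array and were not fitted. Probe names were updated with RefSeq names of GRCm38.p6, by accession (27816 probes), symbol (5503) or older symbol (380), and 7475 kept the file's name. The brightest kept probe stood for a gene, which gave 16330 genes. All 46 members were matched, 23 with 1 kept probe and 23 with several.

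All 8 arrays entered a single fit with limma 3.58.1 (R 4.3.3, functions lmFit and eBayes, without covariates, 5 residual and 1.80 prior degrees of freedom), with Benjamini-Hochberg adjustment over all genes and a threshold of 0.05. The scripts were tested on simulated data. The number of arrays limits the precision. Alternatives covered background correction, scaling, the value table, the probe filter, the probe rule, slide and replicate blocks, fits within slides, fits of 2 groups alone and leaving out each array. A summed marker signal is the sum of scaled linear signals over the genes tested. Named are all 46 members, of each related list the called gene with the largest decrease and increase per comparison, and 8 regulators fixed by name, which were Foxm1, Mybl2, E2f1, E2f4, E2f8, Lin9, Lin54 and Cks2. The members and lists were chosen with earlier results of these data known.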

Additional observations from a re-analysis of the deposited data

How the results depend on the processing

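Under none of the alternatives did a called member reverse its direction. Cdca3 and Kif22 were called lower with EBF1-H240A under quantile normalization, median scaling and a filter for probes well above background on all arrays. Cdca3 was also called over the mean of its probes, and Kif22 with normexp background correction and the deposited values. Incenp and Smc4 were called lower with EBF1-H240A under median scaling. Median scaling shifted the median of all genes from -0.04 to -0.13 with EBF1wt and from -0.0025 to -0.14 with EBF1-H240A, and the share of calls that were lower from 55.3% to 69%, from 51.6% to 68.2% and, between the forms, from 42.8% to 57.8%. With it 38 members were called lower with EBF1wt, 44 with EBF1-H240A and 13 between the forms, against 30.2%, 33.6% and 3.99% of all genes. The member medians against Empty were then -0.40 and -0.69. The authors' deposited values gave 14 members called lower with EBF1wt and 0 between the forms, against 15.6% and 1.82% of all genes. Leaving out the probe filter, so that more genes were tested, gave 11 and 0, against 8.38% and 0.549% of all genes. Between the forms at an unadjusted p under 0.05, 24 and 23 members passed under these settings, against 15.8% and 12.4% of all genes. Normexp background correction gave a member median of -0.47 with EBF1-H240A. With it 18 members were called lower with EBF1wt and 40 with EBF1-H240A, against 14.5% and 16.6% of all genes. It ended the EBF1wt calls of Plk1, Bub1, Bub3, Ttk, Kif4 and Ncapd2 and the EBF1-H240A call of Kif20a. Between the forms, the slide block left 1 member called, and a fit of both groups alone also left 1, against 1.72% and 2.19% of all genes called lower. Within slide 1 and within slide 2 no member was called lower or higher in any comparison (0), while the medians were -0.38 and -0.24 for EBF1wt and -0.62 and -0.43 for EBF1-H240A. These fits had 1 residual degree of freedom each, and at an unadjusted p under 0.05 in limma 12 and 3 members passed with EBF1wt (26.1% and 6.52%, against 26.5% and 24.2% of all genes), 38 and 15 with EBF1-H240A (82.6% and 32.6%, against 36.1% and 25.5%) and 2 and 2 between the forms (4.35%, against 9.33% and 9.8%). Leaving out each array gave 4 to 25 members called lower with EBF1wt, 32 to 41 with EBF1-H240A and 0 to 2 between the forms. The lowest EBF1wt count, without Empty 1, is 8.7% of the members against 12.2% of all genes. The medians then ran from -0.37 to -0.25, from -0.60 to -0.47 and from -0.26 to -0.19, and the count of members called higher stayed at 1, 1 and 0. Where a group was left with 1 array, that array was assumed to vary like the others.

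Deviations of same-numbered arrays from their group means correlated at r = -0.33 to 0.19 over genes. With 2 or 3 arrays per group, deviations within a group are tied to each other. These values therefore cannot show whether the replicate numbers pair the arrays. With the replicate number as a block, 11 members were called lower with EBF1wt, 34 with EBF1-H240A and 0 between the forms, against 15.6%, 18.6% and 0.931% of all genes. At an unadjusted p under 0.05, 22 members passed between the forms under this block, against 20.3% of all genes. The cause of these differences was not tested. Pttg1 was called higher against Empty under all alternatives but the fits within a slide. All 46 members were well above background on all 8 arrays, although some EBF1wt calls depended on the background correction, as given above.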
